A study of Mus musculus with 10 samples.

Results

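Cdh19, Chl1, Cpe, Pmp22 and Mbp, 5 genes best known from Schwann cells, glia and neurons, were followed across 5 sorted populations of mouse mammary epithelium. They were read from the probe sets whose only gene symbol was one of these names, which gave 11 of the 3663 probe sets and 5 of the 2560 named genes in the deposited table. Pmp22, Cdh19 and Cpe had 1 probe set each, Chl1 had 2 and Mbp had 6. The genes were chosen with their values in the basal arrays already known. For these 5 genes, every comparison that includes basal arrays is therefore given below as a description without a test. Only the 2 luminal populations are compared with a test for these genes. Other genes named beside them carry p-values in comparisons with basal arrays.

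The expression arrays were Affymetrix mouse genome chips, 2 per population and 10 in all, and the cells were sorted from virgin female FVB mice aged 6 to 8 weeks. The 3 basal populations were CD24medCD49fmed cells, named myoepithelial in the study's design, Thy-1+CD24medCD49fhigh cells, named stem cells there, and Thy-1-CD24medCD49fhigh cells, named progenitors. The 2 luminal populations were CD24highCD49fmed cells, named luminal progenitors, and CD24medCD49f-/low cells, named differentiated luminal cells. All mice were of 1 strain, with no treatment or engineered allele given in the labels. Antibodies to CD45, CD31 and Ter119 (markers of leukocytes, endothelium and red cells) were used to leave such cells out, and the study's methods also list one to CD140α, the receptor that Pdgfra encodes on fibroblasts. The study's text calls the CD24medCD49fmed gate CD24lowCD49fmed. Whether partner arrays came from different animals is not given in the sources used here, so errors and p-values measure only the spread between arrays, which may be technical.

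Schwann cells wrap peripheral axons, and some of them build myelin, a stack of compacted membrane. Pmp22 and Mbp encode structural proteins of that membrane, and the Mbp gene also gives rise to transcripts used outside myelin. Cdh19 encodes a cadherin of the Schwann cell lineage, and Chl1 encodes an adhesion molecule of the L1 family found on neurons and glia. Cpe encodes carboxypeptidase E, an enzyme of secretory granules that trims the ends of peptide hormone and neuropeptide precursors. Basal mammary cells form the outer layer of ducts, carry keratins 5 and 14 and contract through smooth muscle proteins. Luminal cells line the duct and carry keratins 8 and 18.

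Because the SOX factor Sox10 and the zinc finger factor Egr2 drive myelin genes in Schwann cells and were in the table (values below), promoter windows were searched for short core motifs of both. The SOX cores were ACAAAG and ACAATG and the EGR core was GCGTGGG, on both strands. Of 4 genes looked up, 2 had windows of 250 bases before to 50 bases after a start site annotated in RefSeq (build GRCm38.p6). Chl1 had 1 such window and Pmp22 had 4. The Chl1 window held 1 SOX core, on the minus strand, which starts at position -145 from the start site. The 30 bases around it are chr6:103510719-103510748, plus strand, with the motif in capitals, and the annotated gene begins further upstream than this start site. None of the 4 Pmp22 windows held either motif. The 250 bases before the first Pmp22 start site, chr11:63128732-63128981 on the plus strand, are shown with it as the window that lies upstream of the whole annotated gene.
Chl1: gcaaagttttctCTTTGTccctcgcttttc
Pmp22: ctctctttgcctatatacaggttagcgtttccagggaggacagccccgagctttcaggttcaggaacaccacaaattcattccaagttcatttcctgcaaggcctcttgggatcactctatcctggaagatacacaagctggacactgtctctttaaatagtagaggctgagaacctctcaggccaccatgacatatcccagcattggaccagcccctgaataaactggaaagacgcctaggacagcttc
A SOX core was present in 28.6% of 32851 such windows and an EGR core in 5.04%, so a match of this kind is common and is a description of letters only.

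Values are centred log2 intensities, so that each probe set averages 0 over the 10 arrays and a difference of 1 is a 2-fold change in signal. They carry no abundance and cannot be compared between genes. The authors kept only probe sets whose highest and lowest arrays were 4-fold or more apart, so all 5 genes had to vary somewhere. Lineage markers followed the split of basal from luminal cells, with Krt14 between 1.00 and 2.47 in the 6 basal arrays against -3.30 to -2.19 in the 4 luminal arrays, and Acta2 (smooth muscle actin) between 0.83 and 1.32 against -1.95 to -1.40. All 10 basal epithelial markers listed were called higher in basal arrays (limma adjusted p under 0.05), where 34.7% of features were. All 11 luminal markers in the table had negative differences, and 8 were called lower, where 41.3% of features were. Krt18 ran from -1.92 to 0.60 in basal arrays against 0.45 to 1.14 in luminal arrays, so that it overlapped. The surface markers of the gates followed less closely. Itga6, which encodes CD49f, read 1.15 and 1.36 in the CD24medCD49fmed arrays, 1.17 and 0.43 for Thy-1+CD24medCD49fhigh cells and 0.64 and 0.65 for Thy-1-CD24medCD49fhigh cells, so it was not higher in the CD49fhigh than in the CD49fmed basal gate. It read -1.38 and -1.26 in the CD24highCD49fmed arrays and -1.63 and -1.12 in the CD24medCD49f-/low arrays, which overlapped. Thy1 was 0.58 in Thy-1+ replicate 2, below the 0.67 of CD24medCD49fmed replicate 2, and Cd24a, which encodes CD24, was not analysed here. Array partners were often not the closest pair, since 3 of the 10 arrays correlated best with their partner and 7 with an array of another population. Thy-1+CD24medCD49fhigh replicate 1 had r = 0.836 with CD24medCD49fmed replicate 2 and 0.449 with its own partner. CD24medCD49f-/low replicate 1 had r = 0.761 with CD24highCD49fmed replicate 1 and 0.364 with its own partner. The luminal list had medians of -1.89 and -0.19 in the 2 CD24medCD49fmed arrays, -0.86 and 0.39 for Thy-1+ cells and -1.13 and -0.23 for Thy-1- cells, so 1 array of each basal population carried more luminal signal than its partner, and the part of this in the results was not tested. In sorted bulk RNA, fewer cells of a type and less RNA per cell cannot be told apart.

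The 5 genes followed different patterns. Pmp22 and Mbp were above every luminal array in all 6 basal arrays, and both were highest in CD24medCD49fmed cells, then Thy-1+ cells, then Thy-1- cells. Cdh19 and Chl1 were highest in Thy-1+CD24medCD49fhigh cells, and in Thy-1- cells they lay beside the luminal values. Cpe also had its highest mean in Thy-1+ cells, but these arrays overlapped both luminal populations. Its Thy-1- values lay under all luminal values. Cpe was not higher in basal than in luminal cells, so the name of a basal gene did not hold for it. In the RefSeq annotation of GRCm38.p6, Cdh19 lies on chromosome 1, Chl1 on chromosome 6, Cpe on chromosome 8, Pmp22 on chromosome 11 and Mbp on chromosome 18, so the genes do not share a locus.

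Pmp22 read 2.46 and 1.45 in the CD24medCD49fmed arrays, 1.60 and 0.99 for Thy-1+CD24medCD49fhigh cells and 0.90 and 0.28 for Thy-1-CD24medCD49fhigh cells, against -1.89 and -1.63 in the CD24highCD49fmed arrays and -2.30 and -1.86 in the CD24medCD49f-/low arrays (replicates in the order of their numbers). The basal and luminal arrays did not overlap, and the lowest basal array still stood 1.91 above the highest luminal array. Basal exceeded luminal by 3.20 ± 0.34 (SE), a 9.19-fold difference. The means of the CD24medCD49fmed and Thy-1+ arrays were 1.96 and 1.29, and these arrays overlapped. The Thy-1- mean of 0.59 was apart from both.

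Mbp read 2.71 and 1.92 in the CD24medCD49fmed arrays, 0.91 and 1.42 for Thy-1+ cells and -0.03 and 0.12 for Thy-1- cells, against -1.98 and -1.77 in the CD24highCD49fmed arrays and -1.68 and -1.61 in the CD24medCD49f-/low arrays. No pair of neighbouring populations overlapped, and the Thy-1- arrays lay midway, near the average of all 10 arrays. Basal exceeded luminal by 2.94 ± 0.33, or 7.65-fold. The 6 probe sets moved alike, with correlations between 0.912 and 0.999 over the 10 arrays. Their sizes differed, with basal minus luminal differences between 2.09 for 1419646_a_at and 4.43 for 1433532_a_at. In each of the 6 the basal arrays were all above the luminal arrays. In 1419646_a_at this was by a narrow margin, with -0.71 in Thy-1- replicate 2 against -0.74 in CD24medCD49f-/low replicate 1.

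Cdh19 read 1.19 and 2.48 for Thy-1+ cells, 0.27 in both CD24medCD49fmed arrays and -0.65 and -0.47 for Thy-1- cells, against -0.79 and -0.63 in the CD24highCD49fmed arrays and -0.55 and -1.12 in the CD24medCD49f-/low arrays. Thy-1+ cells stood apart at the top and CD24medCD49fmed cells stood apart in second place. Thy-1- cells overlapped both luminal populations. The 1.29 between the Thy-1+ arrays was the widest replicate gap in any basal population for these genes.

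Chl1 read 1.51 and 1.13 for Thy-1+ cells, 0.94 and -0.01 in the CD24medCD49fmed arrays and -0.91 and -0.68 for Thy-1- cells, against -0.29 and -0.36 in the CD24highCD49fmed arrays and -0.55 and -0.79 in the CD24medCD49f-/low arrays. Thy-1- cells were the lowest of the 5 populations by their mean and overlapped the CD24medCD49f-/low arrays. The probe sets 1417795_at and 1435190_at correlated at 0.948 and both put Thy-1+ cells at the top by their mean. In 1417795_at these arrays overlapped others, with CD24medCD49fmed replicate 2 at 1.08 above Thy-1+ replicate 2 at 0.94.

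Cpe read 0.63 and 1.13 for Thy-1+ cells, 0.20 and -1.04 in the CD24medCD49fmed arrays and -1.65 and -1.06 for Thy-1- cells, against 0.88 and 0.65 in the CD24highCD49fmed arrays and 0.82 and -0.55 in the CD24medCD49f-/low arrays. Thy-1- cells were apart at the bottom, and no neighbours among the other 4 populations were apart. Thy-1+ cells had the highest mean, but their replicate 1 at 0.63 lay below both CD24highCD49fmed arrays. The 2 CD24medCD49fmed arrays differed by 1.24 and the 2 CD24medCD49f-/low arrays by 1.37. The order above Thy-1- cells is therefore not fixed by the data.

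**Figure D1:**
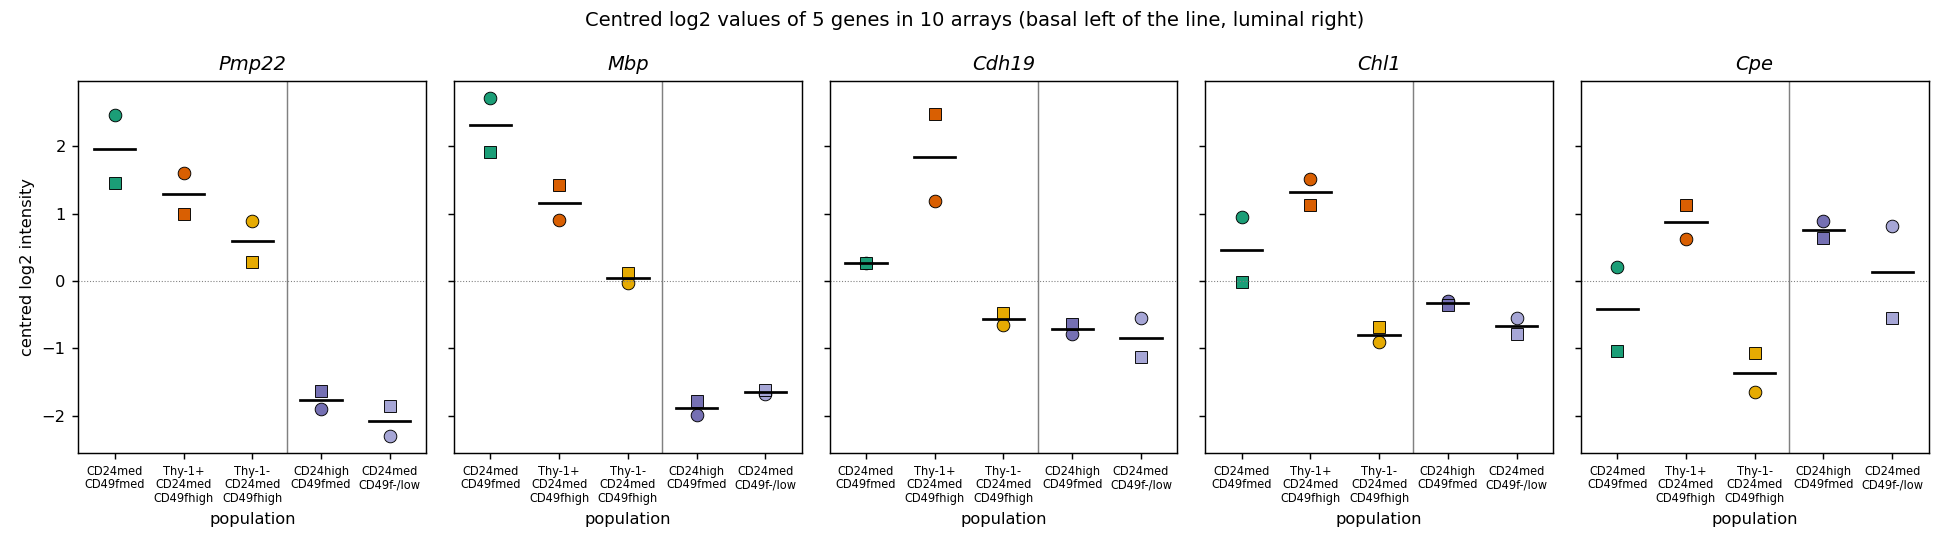
Centred log2 intensity (vertical axis) of Pmp22, Mbp, Cdh19, Chl1 and Cpe in the 5 populations (horizontal axis), where circles are the first and squares the second array of a population and bars are means. Pmp22 and Mbp lie above all luminal arrays in the 6 basal arrays, while Cdh19 and Chl1 peak in Thy-1+CD24medCD49fhigh cells. Cpe has its highest mean there, but these arrays overlap the luminal arrays. The 2 Cdh19 points of CD24medCD49fmed cells coincide at 0.27.

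Set against the whole table, the basal excess of these genes was uneven. Basal and luminal arrays did not overlap, with basal higher, for 2 of the 5 genes, where 25.2% of the 2932 features tested (named genes and unnamed probe sets) did the same. Cdh19 exceeded luminal cells by 1.29 ± 0.34, with 5 of 6 basal arrays above every luminal array. Chl1 exceeded them by 0.83 ± 0.33, with 4 of 6. Cpe differed by -0.75 ± 0.37, 1.68-fold lower in basal cells, and only Thy-1+ replicate 2 was above every luminal array. The median of all features was -0.11. By size, Pmp22 ranked 69 and Mbp 94 of 2932 from the highest, against 669 for Cdh19, 1028 for Chl1 and 1687 for Cpe. Since the genes were picked on these arrays, the ranks describe the choice and carry no test.

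Within the CD24medCD49fhigh gate, all 5 genes were higher in both Thy-1+ arrays than in both Thy-1- arrays, where 17.3% of features were. Cdh19 differed by 2.39 ± 0.53 (5.24-fold), Cpe by 2.24 ± 0.57 (4.71-fold) and Chl1 by 2.12 ± 0.51 (4.34-fold), which ranked 6, 11 and 13 of 2932. Mbp differed by 1.12 ± 0.50 and Pmp22 by 0.71 ± 0.53, which ranked 84 and 236. The median of all features was 0.15, so the whole table leaned towards the Thy-1+ arrays. Thy1 itself, which encodes the sorted surface protein, read 2.59 and 0.58 for Thy-1+ cells against 0.23 and -0.54 for Thy-1- cells. Leaving out Thy-1+ replicate 2 brought the Cdh19 difference to 1.74, and leaving out Thy-1+ replicate 1 brought it to 3.04, and the Pmp22 difference was 0.40 without Thy-1+ replicate 1.

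Stromal markers had positive differences in the same comparison. Of the 10 fibroblast markers listed, 6 were in the table, all 6 were positive and their median difference was 1.38, while 1 passed the test (Col3a1, a fibrillar collagen, 2.21 and 2.48 for Thy-1+ cells against -0.84 and -1.05 for Thy-1- cells, limma adjusted p = 0.00389), where 0.0682% of features did. The sizes were uneven, at 3.29 for Col3a1, 2.28 for Dpt, 1.83 for Col1a2 and 0.94 for Col1a1. Mmp2 and Col5a2 differed little, by 0.53 ± 0.52 and 0.19 ± 0.50. The median of the 6 markers was 1.78 and 1.12 for Thy-1+ cells, 1.33 and 0.81 in the CD24medCD49fmed arrays and -0.15 and -0.13 for Thy-1- cells, against -1.61 to -0.99 in the luminal arrays. Of the 9 pericyte markers, 6 were in the table, with a median difference of 1.16, all positive. Limma called 0 of them, and 4 had an unadjusted p under 0.05, where 2.52% of features did. Pdgfra, Lum and Dcn were not among the rows of the table, and centring leaves no way to say whether any marker is near background. By population means, the fibroblast median ordered the basal populations as Cdh19, Chl1 and Cpe did, with Thy-1+ cells highest and Thy-1- cells lowest. Its Thy-1+ and CD24medCD49fmed arrays overlapped, whereas the gene means of Cdh19, Chl1 and Cpe were apart there. The part of these markers in the result was not tested.

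Of the 5 genes, Mbp and Pmp22 had the largest differences between CD24medCD49fmed cells and the mean of the CD24medCD49fhigh populations. Mbp was higher by 1.71 ± 0.44 (3.27-fold), with all arrays apart, where 2.93% of features were apart in that direction, and it ranked 5 of 2932. Pmp22 was higher by 1.02 ± 0.46 (2.02-fold) and ranked 21, but its arrays overlapped. Cdh19, Chl1 and Cpe differed by -0.36 ± 0.46, 0.20 ± 0.44 and -0.18 ± 0.50. The Chl1 difference turned to -0.27 without CD24medCD49fmed replicate 2, the Cpe difference turned to 0.44 without replicate 3, and Pmp22 stood at 0.51 without replicate 2 and 1.52 without replicate 3. Both myelin genes were higher in replicate 2, the array of the pair with the lower luminal median, and the adipocyte marker Fabp4 was also higher there, at 2.39 against 0.04 in replicate 3, and the part of these in the result was not tested.

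**Figure D2:**
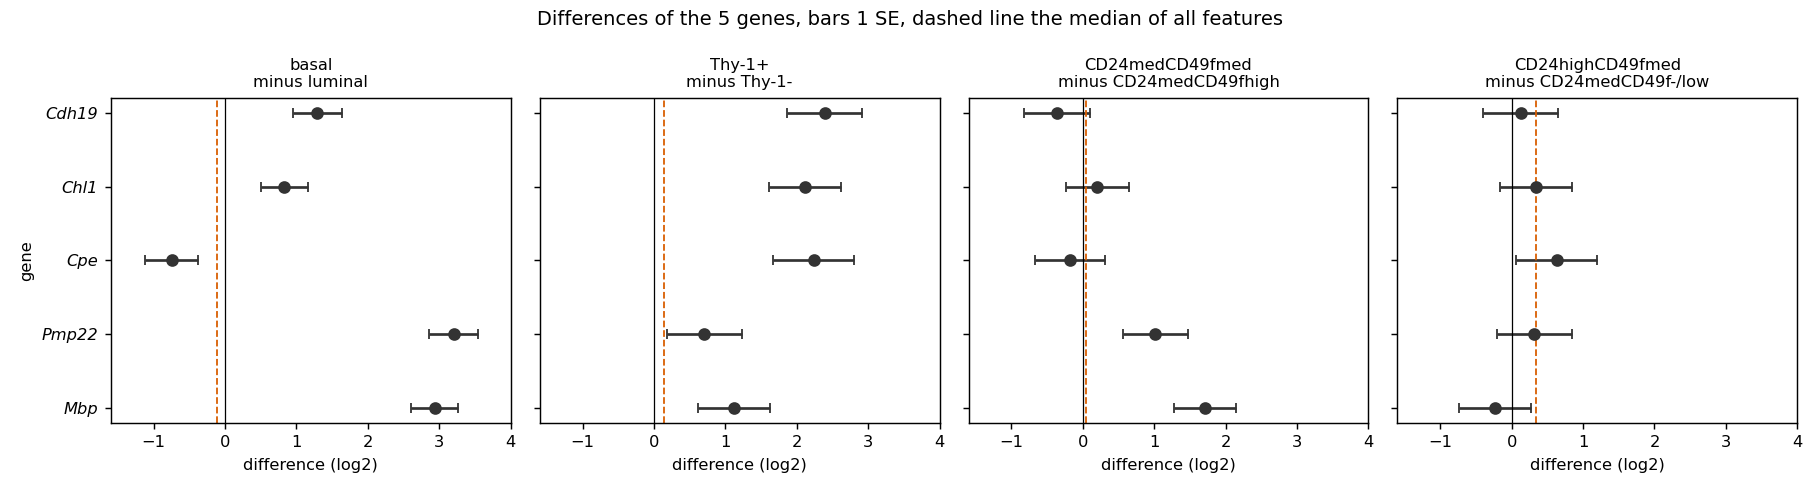
Differences (horizontal axis, log2) of the 5 genes (vertical axis) in the 4 comparisons, with bars of 1 SE and a dashed line at the median of all features. Pmp22 and Mbp lie farthest right between basal and luminal cells (3.20 and 2.94), and Cdh19, Cpe and Chl1 between Thy-1+ and Thy-1- cells (2.39, 2.24 and 2.12).

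Between the luminal populations, whose difference was not used to choose the genes although their arrays were, limma called 0 of the 5 genes at an adjusted p under 0.05, where it called 0.205% of features, 6 of 2932. At an unadjusted p under 0.05 it had 0 of the 5 genes and 451 features (15.4%). Across the luminal arrays the 5 genes had ranges of 0.368 (Mbp) to 1.435 (Cpe), less than the 4-fold range of the authors' filter. They therefore entered the table only through basal arrays, while other features can have entered through luminal differences. The share of all features is thus not a like background for these genes. CD24highCD49fmed minus CD24medCD49f-/low gave 0.13 for Cdh19 (limma adjusted p = 0.914), 0.34 for Chl1 (0.750), 0.63 for Cpe (0.579), 0.32 for Pmp22 (0.780) and -0.23 for Mbp (0.835). The 95% intervals ran from -0.97 to 1.22, -0.71 to 1.40, -0.56 to 1.82, -0.78 to 1.41 and -1.28 to 0.81 in the same order, so a 2-fold difference (1 on this scale) lay within each interval in 1 direction and outside it in the other. The CD24highCD49fmed arrays were apart from the CD24medCD49f-/low arrays for Chl1, where they were higher, and for Mbp, where they were lower, against 37.6% and 14.2% of features. The median of all features was 0.35 here and turned to -0.14 once array medians were set to 0, and with it the sign for Cdh19, Chl1 and Pmp22. The 2 luminal populations also differed in basal signal. All 10 basal epithelial markers were lower in both CD24highCD49fmed arrays than in both CD24medCD49f-/low arrays, where 14.2% of features were. Their median difference was -1.32 and limma called 0 of them at an adjusted p under 0.05. At an unadjusted limma p under 0.05 there were 6 of the 10, where 15.4% of features were. The part of this in the values of the 5 genes was not tested.

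**Figure D3:**
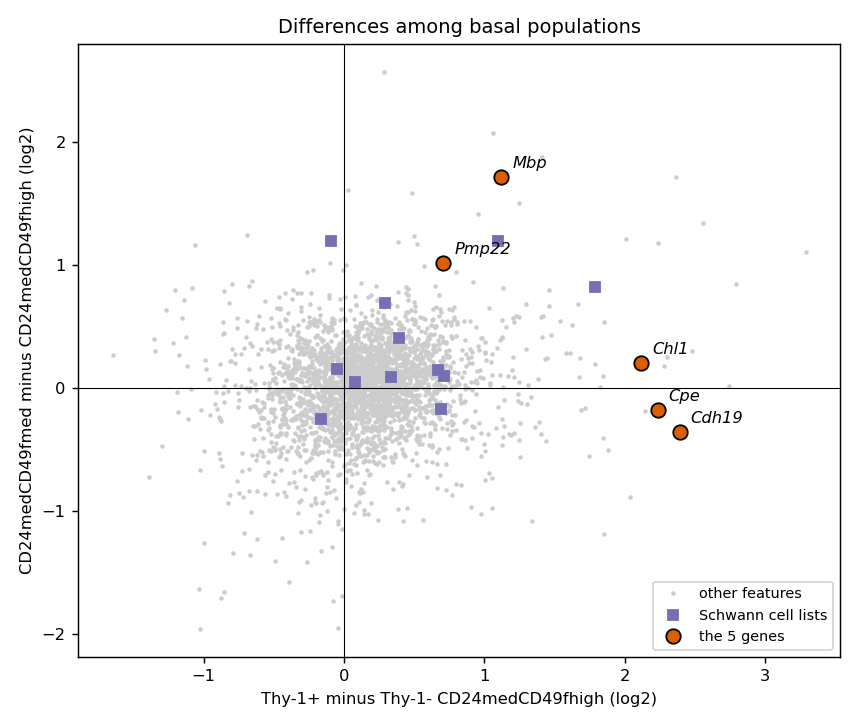
Each point is a feature, with its difference between Thy-1+ and Thy-1-CD24medCD49fhigh cells on the horizontal axis and between CD24medCD49fmed cells and the mean of the CD24medCD49fhigh populations on the vertical axis (log2). The axes share arrays, so the cloud is not a test of a relation. Mbp (1.12, 1.71) and Pmp22 (0.71, 1.02) lie up and to the right, and Chl1, Cpe and Cdh19 lie far right near 0 on the vertical axis.

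Other genes of the Schwann cell programme were looked up from lists that exclude the 5 genes. These lists, like all marker lists here, were chosen with earlier results of these data known, so their calls are not independent of these arrays. Of 15 genes of myelinating Schwann cells, 5 were in the table, and limma called 4 higher and 1 lower in basal than in luminal cells, where it called 34.7% of features higher and 41.3% lower. Their median difference was 1.68, against -0.11 for all features. Egr2, which activates myelin genes, read 0.84 and 0.87 in the CD24medCD49fmed arrays, 0.82 and 0.53 for Thy-1+ cells and 0.90 and 0.55 for Thy-1- cells, against -1.21 to -0.98 in the luminal arrays (1.88 ± 0.31, limma adjusted p = 4.22e-05). Its values were close together across the basal populations, unlike those of Mbp. Drp2, a dystrophin relative on the outer Schwann cell membrane, was higher by 1.80 ± 0.33 (limma adjusted p = 0.000101), and Cnp, a phosphodiesterase of myelinating glia, by 1.68 ± 0.32 (limma adjusted p = 0.000162).

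Mal, a membrane proteolipid of myelin and of polarised epithelia, read 1.52 and 0.71 in the CD24medCD49fmed arrays, 0.21 and 0.73 for Thy-1+ cells and -0.77 and -0.48 for Thy-1- cells, against 0.08 and -0.42 in the CD24highCD49fmed arrays and -0.61 and -0.97 in the CD24medCD49f-/low arrays. Its basal excess was 0.80 ± 0.33 (limma adjusted p = 0.0343), and its order among the basal populations was that of Mbp. The study's own gene set for CD24lowCD49fmed cells in FVB holds Mal and Mbp, so this likeness is not independent of the choice. Ugt8a, which makes the myelin lipid galactosylceramide, was lower in basal cells (-1.63 ± 0.36, limma adjusted p = 0.000603), though its arrays overlapped. It read 0.97 and -0.68 in the CD24medCD49fmed arrays, -1.37 and -0.82 for Thy-1+ cells and near -1.01 for both Thy-1- arrays, against 1.96 and 1.38 in the CD24highCD49fmed arrays and 0.33 and 0.24 in the CD24medCD49f-/low arrays. The other 10 genes of the list were not analysed here.

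Of 20 further Schwann lineage genes, 7 were in the table, and limma called 6 higher and 1 lower in basal cells, against 34.7% and 41.3% of features, with a median difference of 1.27. Sox10, the transcription factor of neural crest and glia, read 0.38 and 0.55 in the CD24medCD49fmed arrays, 0.97 and 0.12 for Thy-1+ cells and 0.25 and 0.16 for Thy-1- cells, against -0.78 and -0.48 in the CD24highCD49fmed arrays and -1.14 and -0.04 in the CD24medCD49f-/low arrays (1.01 ± 0.34, limma adjusted p = 0.0116). All 6 basal arrays were above the 4 luminal arrays, with 0.12 the lowest basal and -0.04 the highest luminal value. Matn2, a matrix protein, and Scn7a, a sodium channel relative, had the largest excesses of the 7, at 4.26 ± 0.32 (limma adjusted p = 3.43e-09) and 3.81 ± 0.38 (limma adjusted p = 8.66e-08). Ngfr, the low affinity neurotrophin receptor, was higher by 1.27 ± 0.32 and the adhesion molecule Ncam1 by 0.82 ± 0.35 (limma adjusted p = 0.00179 and 0.0401). Erbb3, the neuregulin receptor through which axons signal to Schwann cells, had a difference of -1.44 ± 0.40 (lower in basal cells, limma adjusted p = 0.00378), with a high value of 2.04 in CD24medCD49f-/low replicate 2. Its arrays overlapped, with 0.27 in Thy-1+ replicate 2 above 0.14 in CD24medCD49f-/low replicate 1.

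Kcna1, a potassium channel subunit of nerve, had the largest difference of this list between Thy-1+ and Thy-1- cells. It read 1.31 and 1.11 in the CD24medCD49fmed arrays, 1.01 and 1.56 for Thy-1+ cells and -0.67 and -0.34 for Thy-1- cells, against -1.17 to -0.68 in the luminal arrays. That difference, 1.79 ± 0.50, did not pass the test (limma adjusted p = 0.349). In that comparison and in the other comparison within basal cells limma called 0 genes of either Schwann list, where it called 0.0682% and 0.0341% of features. At an unadjusted p under 0.05 there were Kcna1 and Mal in the first and Mal and Ugt8a in the second, against 2.52% and 1.77% of features. None of 15 neuronal markers and none of 10 endothelial markers was among the rows. Of 8 melanocyte markers Kit was in the table and lower in basal cells (-2.16 ± 0.36, limma adjusted p = 4.07e-05), and luminal progenitors carry that receptor as well. Of 8 leukocyte markers Lcp1 was in the table and lower in basal cells, by a difference of -1.76. Whether this RNA came from basal epithelial cells or from Schwann cells in the gates was not tested.

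**Figure D4:**
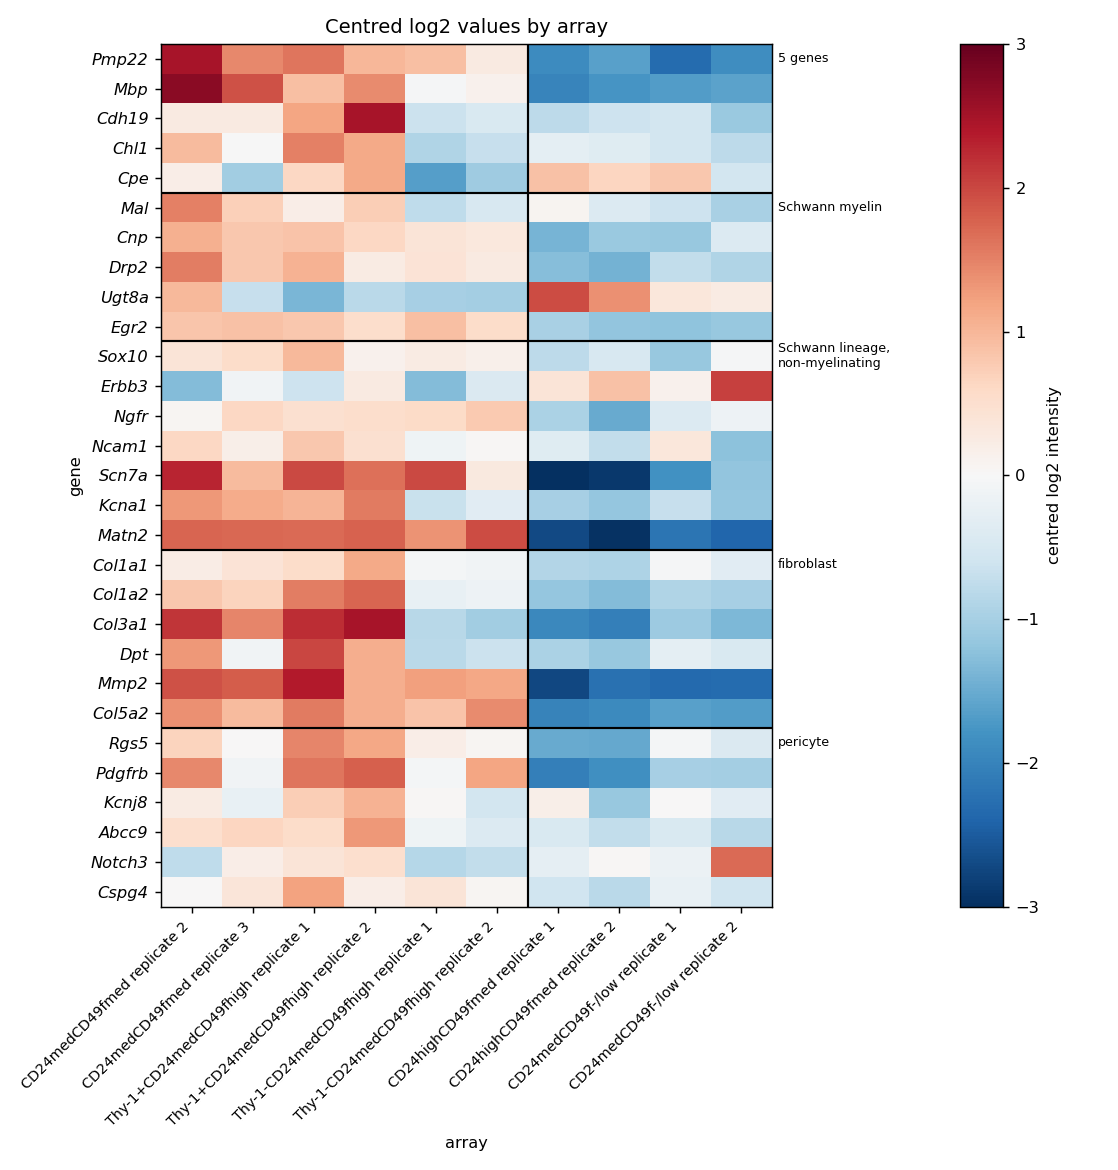
Centred log2 intensity (colour, from -3 to 3) of the 5 genes and of the Schwann, fibroblast and pericyte list genes in the table (rows) in the 10 arrays (columns), with the 6 basal arrays left of the line. Matn2 lies between 1.35 and 1.95 in the 6 basal arrays, and Mal and Kcna1 are low in Thy-1- arrays. Ugt8a and Erbb3 run the other way by their means. Ugt8a still reaches 0.97 in CD24medCD49fmed replicate 2 and Erbb3 reaches 0.27 in Thy-1+CD24medCD49fhigh replicate 2.

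Few listed relatives of the 5 genes by family or reaction were in the table, and their calls stand beside 34.7% of all features called higher and 41.3% called lower in basal than in luminal cells. Of the PMP22 family, Perp, a desmosome component, and Tmem47 were in the table and higher by 1.85 ± 0.32 and 1.62 ± 0.33 (limma adjusted p = 5.03e-05 and 0.000322). Neither had a positive difference between Thy-1+ and Thy-1- cells, where Pmp22 had 0.71. Of the other cadherins searched, 3 of 15 were in the table and all were called. Cdh2 (N-cadherin) was higher by 3.16 ± 0.34 and Cdh13 by 1.18 ± 0.35, while Cdh1 (E-cadherin) differed by -1.37 ± 0.33 (limma adjusted p = 1.87e-07, 0.00525 and 0.00129). Their differences between Thy-1+ and Thy-1- cells were -0.44, 0.42 and 0.64, against 2.39 for Cdh19. Of 11 genes of the L1 family and of neural adhesion, 4 were in the table and 3 were called higher in basal cells. These were Nrcam (0.91 ± 0.38, limma adjusted p = 0.0382), the guidance factor Sema3a (1.99 ± 0.43, limma adjusted p = 0.000499) and Ncam1, already counted above. Between Thy-1+ and Thy-1- cells Nrcam and Ncam1 differed by 0.67 and 0.71. Cntn1 and Sema3a differed by -1.30 and -1.16 there, against 2.12 for Chl1. Of 17 genes of prohormone processing and of metallocarboxypeptidases, Cpd, Cpxm2 and Aebp1 were in the table, and all 3 were higher in basal cells, by 1.40 ± 0.38, 2.74 ± 0.34 and 1.83 ± 0.32 (limma adjusted p = 0.00319, 1.11e-06 and 5.75e-05), while Cpe had -0.75.

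The genes whose values ran most like each of the 5 were found by Pearson correlation over the same arrays, which share their libraries, and are given without a test. Over the 10 arrays Mbp was most like Qk, which encodes the RNA binding protein Quaking known for handling Mbp transcripts (r = 0.967), then Pmp22 (0.957) and Sorcs1 (0.939). Pmp22 was most like Ets1 (0.974), Plxdc2 (0.973) and Fam13c (0.973), and 330 genes, 12.9% of those named, were above 0.9 with it. For Mbp there were 33 such genes, for Cdh19 9, for Chl1 1 and for Cpe 0. Cdh19 was most like the potassium channel gene Kcna2 (0.973), Aspa (0.941), which encodes aspartoacylase, an enzyme of myelinating glia, and the transcription factor gene Zeb2 (0.939). Kcna2 read 1.04 and 2.53 for Thy-1+ cells, 0.57 and 0.47 in the CD24medCD49fmed arrays and -0.42 and -0.30 for Thy-1- cells, against -1.10 to -0.85 in the luminal arrays. Its values repeated the gap between the Thy-1+ arrays seen for Cdh19. Chl1 was most like Dpt (0.929), a matrix protein gene of fibroblasts, Nkain2 (0.888) and Tgfbi (0.883), and Cpe was most like Lgals3 (0.839), Ctso (0.836) and Exph5 (0.794).

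Over the 6 basal arrays alone, Kcna2 remained closest to Cdh19 and Dpt to Chl1, Aspa and Lgals3 remained among the 3 closest to Cdh19 and Cpe, and the gene closest to Mbp, Cpe and Pmp22 was another. Mbp was closest to Gatm (0.988), an enzyme gene of creatine synthesis, and Mal (0.984), then Ywhaz (0.913). Cdh19 was closest to Kcna2 (0.993), Col1a1 (0.982) and Aspa (0.977), and Chl1 to Dpt (0.985), Zfand2a (0.977) and Ncam1 (0.976). Cpe was closest to Rarres2 (0.966), which encodes the secreted protein chemerin, Lgals3 (0.957) and Gbp2 (0.955). Pmp22 was closest to Brcc3 (0.993), Cnp (0.956) and Dusp15 (0.944). Brcc3 spanned only -0.60 to -0.16 in the basal arrays and reached 1.56 in a luminal array, so it had the Pmp22 order at a small scale and the opposite basal to luminal direction. Cpe correlated with Chl1 at 0.942 and with Cdh19 at 0.905 over the basal arrays, against 0.533 and 0.401 over all 10, where its high luminal values separate it. Pmp22 and Mbp correlated at 0.839 over the basal arrays and 0.957 over all 10. Cdh19 and Pmp22 correlated at 0.172 over the basal arrays. With 6 points these values rest on few arrays.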

How the data were processed

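RNA from 10 arrays of 5 sorted populations was analysed. Cells were dissociated, stained, sorted in 2 passes and labelled from the 3′ end in 2 amplification cycles. The authors normalised the arrays together by RMA per the study's methods, while the labels name RMA and GCRMA without versions, and they left out probe sets of low level or under 4-fold range. The deposited values are log2 intensities centred to a mean of 0 per probe set over the arrays, so signal over background is unknown and the number of arrays limits the precision.

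Probe sets were matched to symbols by identifier, with 3291 carrying 1 symbol, 75 several and 297 none in the annotation. Probe sets of 1 gene were averaged, and the others were tested alone, which gave 2932 features, 2560 named genes and 372 unnamed probe sets. One linear model with a mean per population was fitted to all arrays (limma 3.58.1 in R 4.3.3, lmFit and eBayes, 5 residual and 16.5 prior degrees of freedom). Tests were two-sided with Benjamini-Hochberg adjustment over all features, and SE is that of the model. The fit was tested on simulated data. The 5 genes and all marker lists were chosen with earlier results of these data known. Named genes were the probe sets of the 5 genes, the 3 genes most alike each over 10 and over 6 basal arrays, the Schwann list genes, and up to 4 genes of every other list by size of the basal difference, with gate markers. Alternatives were robust moderation, quantile normalisation, array medians set to 0, a replicate block, a fit of only the arrays compared, single probe sets, a minimum difference of 1, and leaving out each array. Counts for the Schwann lists under 3 of these alternatives were added after seeing the data. Rank products, which the study used, were not run.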

Additional observations from a re-analysis of the deposited data

Results flagged for a closer look

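Among the 4 luminal arrays Cpe was far from the others in CD24medCD49f-/low replicate 2, at -0.552, where the other 3 lay between 0.645 and 0.883. The gap to its neighbour was 0.834 of the whole range, just past the Dixon limit for 4 values. Of 10 groups examined (5 genes in the basal and in the luminal arrays) this was the 1 with a far value, and chance gives about 1 in 20. That array also had the highest Erbb3 value of the 10, and its correlation with its partner was 0.364.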

How the results depend on the processing

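Of 302 values of the 5 genes under an alternative, 10 changed sign, and none of the luminal tests passed the threshold (adjusted p between 0.12 and 0.991). In the luminal comparison 7 values turned and 76 kept their direction and side. With array medians set to 0 the difference was -0.35 for Cdh19, -0.14 for Chl1 and -0.16 for Pmp22, and after quantile normalisation -0.016 for Cdh19. Probe set 1433532_a_at alone gave 0.225 for Mbp. Without CD24medCD49f-/low replicate 2 it was -0.16 for Cdh19 and -0.054 for Cpe. With arrays left out in turn the ranges were -0.16 to 0.41 for Cdh19, -0.05 to 1.32 for Cpe, 0.22 to 0.46 for Chl1, 0.10 to 0.54 for Pmp22 and -0.34 to -0.13 for Mbp. The median of all features moved by -0.48 with array medians set to 0 and by -0.36 after quantile normalisation there, and by -0.17 and -0.19 between Thy-1+ and Thy-1- cells.

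In the descriptive comparisons, single Mbp probe sets gave 2.09 (1419646_a_at), 4.43 (1433532_a_at) and 2.10 (1451961_a_at) between basal and luminal cells and 0.77 (1451961_a_at) between Thy-1+ and Thy-1- cells. With arrays left out, the Thy-1 difference of Cdh19 ran from 1.74 to 3.04. CD24medCD49fmed minus CD24medCD49fhigh ran from -0.27 to 0.68 for Chl1, 0.51 to 1.52 for Pmp22 and 1.31 to 2.11 for Mbp.

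Counts of called features within lineages were small and unstable. Between Thy-1+ and Thy-1- cells the 2 became 1 with array medians set to 0, after quantile normalisation and with probe sets tested alone, 13 with only the arrays compared, and 0 to 11 with arrays left out. Between CD24medCD49fmed and CD24medCD49fhigh cells the 1 became 0 after quantile normalisation, and 0 to 1 with arrays left out. Between luminal populations the 6 became 20 with array medians set to 0, 0 after quantile normalisation, 0 with only the arrays compared, 11 with probe sets tested alone, and 0 (without CD24highCD49fmed replicate 1) to 295 (without CD24medCD49f-/low replicate 1) with arrays left out, while 118 were called without CD24medCD49f-/low replicate 2. The basal against luminal count of 2227 ran from 1768 to 2516. The 4 Schwann myelin genes called higher were 3 to 4 and the 6 lineage genes were 4 to 6 with arrays left out, lowest without CD24highCD49fmed replicate 1. The cause of these changes was not tested.

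Replicate numbers are shared between populations, but the labels tie them to no animal or day, and deviations of same-numbered arrays correlated between -0.513 and 0.521, with 0.521 between the luminal populations and 0.30 between Thy-1+ and Thy-1- cells, so a pairing was not established and whether numbers mark shared sorts is not known. With a replicate block the calls were 9 between Thy-1+ and Thy-1- cells, 19 between CD24medCD49fmed and CD24medCD49fhigh cells, where CD24medCD49fmed carries numbers 2 and 3, and 33 between luminal populations, and the CD24medCD49fmed differences were 0.74 for Chl1, 0.51 for Cpe and 1.59 for Pmp22.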
